A study of Mus musculus with 9 samples.

Results

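Mecom, the gene of the MDS1 and EVI1 complex locus, was 1 of 24060 named rows in a count table of LSKs, the Lin−Sca1+Kit+ bone marrow fraction that holds haematopoietic stem cells and multipotent progenitors. It was chosen by its counts in these 9 libraries, because it was raised while most stem cell genes were lower. Its differences between groups, and those of the stem cell genes, are therefore descriptions without a test. Mecom averaged 115 ± 34.5 CPM (counts scaled to library size with TMM factors; SD, n = 3) in control, 266 ± 185 CPM (SD, n = 2) in NHD13 and 1366 ± 231 CPM (SD, n = 4) where the label was NHD13/MSI2. In the libraries labelled NHD13/MSI2, 20 of 23 stem cell genes were below the controls by the sign of the fitted log2 fold change. The median of the 23 was −2.76, against −0.01 over all genes tested. Some of the 20 hardly differed, such as Hoxb4 at −0.03 and Gata2 at −0.19. Prdm16, the closest paralogue of Mecom, was at −4.87.

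All donors were of strain C57BL/6. The labels give an age of 4 months, which need not be that of the donors. By the paper, the LSKs were taken 4 months after transplantation and 3 months after MSI2 induction, before disease began. Control marrow was C57BL/6 marrow. NHD13 marrow carried the NUP98-HOXD13 fusion behind the Vav promoter, which is active across the blood lineages, and NHD13/MSI2 marrow carried in addition a doxycycline-inducible MSI2 at the Col1A1 locus with the reverse transactivator at ROSA26. Marrow of each kind was transplanted into lethally irradiated CD45.1 recipients together with CD45.1 helper cells, and LSKs were sorted from these recipients. The paper's account of the profiled cells names no gate on donor CD45.2. The study describes profiling after 3 months of doxycycline, and the sample annotation gives 3 months of induction for all 9 libraries. Only the labels of the 4 NHD13/MSI2 libraries hold the word dox. Whether control and NHD13 recipients received it is not otherwise given in the sources used here. The libraries numbered 3, 2 and 4, with totals of 19242153 to 23013493 counts. Neither the number of mice behind a library nor the number of donors is given in the labels, so the spread between libraries may be in part technical.

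Some checks of the labels bear on every comparison below. Hoxd13, the 3' part of the fusion, had 0 counts in the 3 controls and 13 to 25 counts in each of the 6 other libraries. Msi2 was not higher where the labels place its overexpression: it stood at 223, 316 and 266 CPM in control, 139 and 111 CPM in NHD13 and 88.0, 77.1, 82.8 and 241 CPM in NHD13/MSI2. Whether reads of the transgene are counted on this row was not tested, and the group is therefore called the libraries labelled NHD13/MSI2. Replicate 4 of that group stood apart, with a chi-square per gene of 397 to 426 against its 3 fellow libraries, which differed among themselves by 18.7 to 32.3. Xist was high in control replicates 1 and 3 (888 and 866 CPM) and at most 2.33 CPM in the 7 others, so comparisons with control mix sexes. The label of control replicate 1 also holds the word Bulk and those of the other two controls MPP and HSC; what the words mean for the sort is not explained.

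The LSK gate was visible in both of its surface markers. Kit, the stem cell factor receptor, ranged from 908 to 2254 CPM over the 9 libraries, and Ly6a, which encodes Sca1, from 48.3 to 375 CPM. Of the 9 LSK and lineage markers in the table, the T cell genes Cd3e and Cd8a were at 3 counts or fewer in every control. Kit and Ly6a were picked out after their values were seen.

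Mecom encodes a zinc finger transcription factor of the PRDM family that haematopoietic stem cells need for self-renewal, and its rearrangement or overexpression marks aggressive myeloid leukaemia in patients. The locus makes a long protein, MDS1-EVI1, which has a PR domain, and a shorter one, EVI1, which lacks it, from separate promoters. EVI1 recruits the corepressor CtBP and histone-modifying enzymes, and genes such as Gata2 and Spi1 have been reported as its targets.

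On GRCm38 the gene spans chr3:29951296-30548008 on the minus strand, with 17 annotated transcripts, 11 of them protein coding, and 12427 bases of exon when these are merged (GENCODE M21). The counts were made on another build, mm9, and summed over the whole locus, so they cannot tell the long from the short form. RefSeq lists 2 start sites for Mecom on GRCm38.p6. The 250 bases before each are shown because transcripts from both starts are summed in 1 count row here. The first lies at chr3:30509760-30510009 and the second at chr3:30013205-30013454, both read along the minus strand, 5′ to 3′. Capitals mark motifs searched on both strands, namely GATAA for GATA factors, GGAAG for ETS factors, TGTGGT for RUNX factors and TGACAG for MEIS factors, and no 2 matches overlapped.
Mecom upstream start: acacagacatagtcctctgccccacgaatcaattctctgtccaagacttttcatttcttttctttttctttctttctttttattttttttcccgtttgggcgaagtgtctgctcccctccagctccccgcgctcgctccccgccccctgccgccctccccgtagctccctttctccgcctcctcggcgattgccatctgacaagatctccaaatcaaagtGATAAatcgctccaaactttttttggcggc
Mecom downstream start: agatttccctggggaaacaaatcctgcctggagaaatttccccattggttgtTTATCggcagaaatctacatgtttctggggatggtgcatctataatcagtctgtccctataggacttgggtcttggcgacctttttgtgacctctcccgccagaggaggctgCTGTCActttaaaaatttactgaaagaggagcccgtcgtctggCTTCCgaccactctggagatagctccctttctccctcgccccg
The upstream window held 1 match, to the GATA motif. The downstream window held 3, 1 each to the GATA, ETS and MEIS motifs. Neither held the RUNX motif. Among 32851 RefSeq windows of this length the GATA motif was found in 22.6%, the ETS motif in 64.1%, the MEIS motif in 15.9% and the RUNX motif in 14%, so the matches are common ones and describe letters, not bound sites.

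In the controls Mecom had 3512, 1619 and 3138 counts, or 144, 76.8 and 125 CPM. The NHD13 libraries had 8629 and 2748 counts, or 397 and 136 CPM. The libraries labelled NHD13/MSI2 had 22954, 24838, 29554 and 26189 counts, or 1187, 1239, 1337 and 1700 CPM. Every library labelled NHD13/MSI2 was above every other library, and the lowest of them was 2.99-fold above the highest NHD13 library and 8.27-fold above the highest control. The NHD13 and control groups overlapped, since NHD13 replicate 2 lay below control replicate 1. Mecom took 0.00816% of the counts in control replicate 2 and 0.133% in replicate 4 labelled NHD13/MSI2. Counting error was small beside these differences: the exact Poisson 95% interval of the lowest library was 73.1 to 80.7 CPM and that of the highest was 1679 to 1720 CPM.

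**Figure D1:**
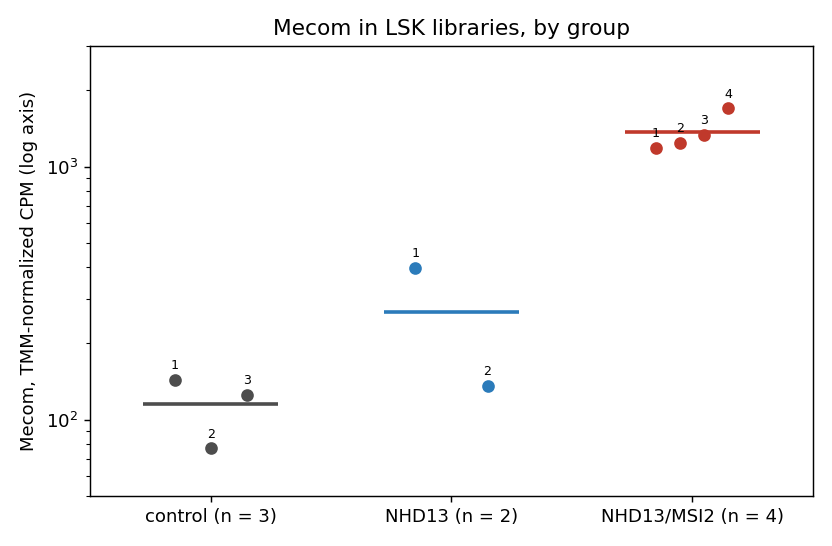
Mecom in each LSK library, as TMM-normalized CPM on a log axis, by group; points are libraries with their replicate number and lines are group means. The 4 libraries labelled NHD13/MSI2 sit between 1187 and 1700 CPM, and the 5 others between 76.8 and 397 CPM.

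The mean of the libraries labelled NHD13/MSI2 was 5.13-fold the NHD13 mean, with a fitted log2 fold change of 2.36 ± 0.45 (SE). Counted down from the most raised gene, Mecom stood 204th of 13355 genes tested, and 54th of the 10972 with a mean of at least 50 counts. Of all genes tested, 3.17% were called in this contrast at an adjusted p under 0.01, 0.584% as higher. The NHD13 value rests on 2 libraries that differed from each other, and the log2 fold change was 3.36 without NHD13 replicate 1 and 1.83 without NHD13 replicate 2.

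The mean of the libraries labelled NHD13/MSI2 was 11.8-fold the control mean, with a fitted log2 fold change of 3.57 ± 0.40 (SE). In this contrast 11% of genes were called, 4.49% as higher. Mecom stood 233rd counted down from the most raised gene, or 124th of those with a mean of at least 50 counts. Leaving out any 1 library gave log2 fold changes of 3.34 to 3.75. With control replicate 2 as the lone control, the 1 control without high Xist, it was 4.19.

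NHD13 alone gave a Mecom mean of 2.31-fold the control mean (log2 fold change 1.21 ± 0.41 SE). In this contrast 1.03% of genes were called, 0.824% as higher and 0.21% as lower. NHD13 replicate 1, at 397 CPM, was above all 3 controls, and NHD13 replicate 2, at 136 CPM, was within their range. Without NHD13 replicate 1 the log2 fold change was 0.24. Leaving out NHD13 replicate 2 instead gave 1.77.

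The genes around Mecom gave little to compare. Of the 5 nearest genes on each side that have a row in the table, only Mynn, a zinc finger gene, had enough counts to test. It ranged from 60.8 to 104 CPM over the 9 libraries and did not pass in any contrast, with log2 fold changes of −0.07 from NHD13 to NHD13/MSI2, −0.28 from control to NHD13/MSI2 and −0.21 from control to NHD13. The count of neighbours called was 0 by edgeR and by DESeq2 in every contrast, and edgeR gave 0 at an unadjusted p under 0.05. Of the others, Mannr, Actrt3 and Lrrc34 reached at most 27 counts in a library, and Egfem1, Mir21b, Mir551b, Gm1527, Lrriq4 and Samd7 had 0 counts in all 9. RefSeq places 3 further genes within Mecom (Gm52621, Mecomos and Gm10258) that have no row in the table. The strand setting of the counting is not given in the sources used here, so reads of Mecom and of these overlapping genes cannot be told apart.

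The stem cell list held 23 transcription factors, receptors and surface proteins of haematopoietic stem cells, all of them tested. Between NHD13 and the libraries labelled NHD13/MSI2, the contrast that chose Mecom, 18 of the 23 were lower and their median log2 fold change was −3.09, against −0.03 over all genes tested. Of them 11 were called lower and 0 higher, where 2.58% of all genes were called lower.

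Over control, 20 of the 23 were lower in the libraries labelled NHD13/MSI2, 13 of them called lower and 2 called higher, where 6.55% of all genes were called lower and 4.49% higher. Nothing is read from the counts of this list in any contrast, because the lower stem cell genes were part of the reason for the choice. The median log2 fold change was −2.76, also with Fgd5 and Ndn at their bound, against −0.01 over all genes. With each library left out in turn, 11 to 14 genes were called lower, and with control replicate 2 as the lone control 3. In NHD13 over control 1 of the 23 was called lower and 0 higher, where 0.21% of all genes were called lower, and the median was −0.32. In bulk RNA, fewer cells of a type and less RNA per cell cannot be told apart.

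Hlf, a leucine zipper factor of stem cells, stood at 332, 284 and 477 CPM in control, 26.1 and 10.03 CPM in NHD13, and 0.155, 0.0499, 0.317 and 0.779 CPM in NHD13/MSI2. The 3 groups did not overlap, and their order was the reverse of that of Mecom. The log2 fold change over control was −10.20 ± 0.63 (SE) in the libraries labelled NHD13/MSI2. In NHD13 the log2 fold change of Hlf over control was −4.33 ± 0.62 (SE). With each library left out in turn it ran from −5.18 to −3.82.

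Meis1, a homeobox partner of the HOX proteins, was at 1015, 705 and 863 CPM in control, 523 and 158 CPM in NHD13, and 4.16 to 11.7 CPM in NHD13/MSI2. The log2 fold change over control was −7.03 ± 0.55 (SE). Mllt3, a transcriptional elongation cofactor, was at 63.3 to 116 CPM in control and 0.207 to 4.28 CPM in NHD13/MSI2 (log2 fold change −5.15 ± 0.68 SE). Fgd5, a guanine nucleotide exchange factor of stem cells, was at 7.26 to 11.8 CPM in control and had 0, 1, 2 and 2 counts in NHD13/MSI2, at least 62.6-fold lower against a floor of 3 counts per library. Ndn, a growth suppressor of the MAGE family, was at 3.89 to 15.6 CPM in control and at 0 counts in all 4 libraries labelled NHD13/MSI2, at least 50.7-fold lower. Beside Mecom, which is not on the list, the 2 genes called higher were Runx1, described with the reported targets, and Hoxa9, a homeobox gene of the NUP98 fusion programme that was picked out after its value was seen. Hoxa9 stood at 72.8 to 104 CPM in control, 116 and 169 CPM in NHD13 and 166 to 210 CPM in NHD13/MSI2 (log2 fold change over control 1.16 ± 0.19 SE).

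**Figure D2:**
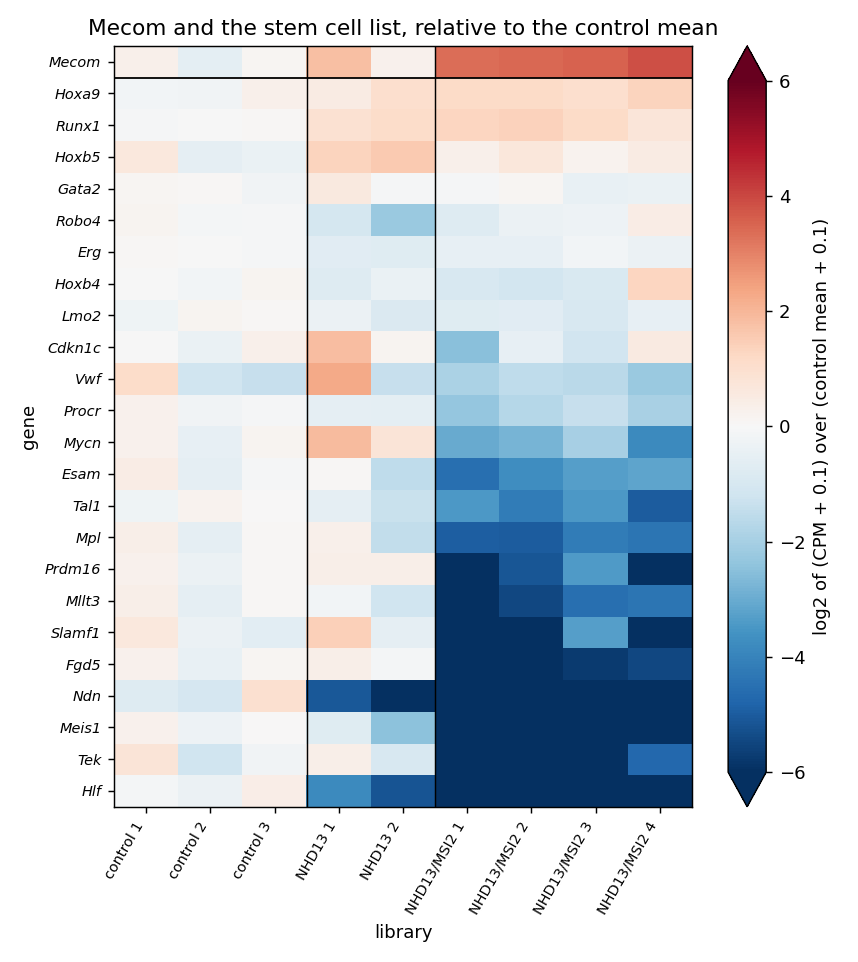
Mecom (top) and the 23 genes of the stem cell list in the 9 libraries, coloured by log2 of CPM + 0.1 over the control mean + 0.1, with colours ending at 6 each way. Mecom is between 3.36 and 3.88 in the 4 libraries labelled NHD13/MSI2, the highest value of each of these columns, while most rows of the list are blue there.

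The PRDM family was measured next because Mecom belongs to it as Prdm3. The table held the 13 other members of the list, of which 8 were tested, and Prdm6, Prdm8, Prdm12, Prdm13 and Prdm14 were at 3 counts or fewer in every library. Over control 1 of the 8 was called in the libraries labelled NHD13/MSI2, against 11% of all genes, and the median of the 8 was −0.02. The 1 was Prdm16, which is also on the stem cell list, so nothing is read from this call. The 7 others were not called and had log2 fold changes between −1.09 (Prdm1) and 0.40 (Prdm4). In NHD13 over control edgeR called 0 of the 8, with 0 at an unadjusted p under 0.05, and DESeq2 called 0. Of all genes edgeR called 1.03% there, with 1802 of 13355 at an unadjusted p under 0.05, and DESeq2 called 603 of 17322.

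Prdm16, which like Mecom is required by haematopoietic stem cells, was at 41.1, 27.3 and 36.3 CPM in control, 44.4 and 44.8 CPM in NHD13, and 0.207, 0.898, 3.17 and 0.325 CPM in NHD13/MSI2. Its log2 fold change in the libraries labelled NHD13/MSI2 was −4.87 ± 0.70 (SE) over control and −5.23 ± 0.74 (SE) over NHD13. The 2 NHD13 values were above all 3 controls (log2 fold change 0.35 ± 0.72 SE). On a scale of CPM per kb of merged exon, Mecom was 2.11- to 2.62-fold the level of Prdm16 in control, 6.70- and 2.27-fold in NHD13, and 317- to 4304-fold in NHD13/MSI2. The largest of these ratios rest on 4 and 5 counts of Prdm16.

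**Figure D3:**
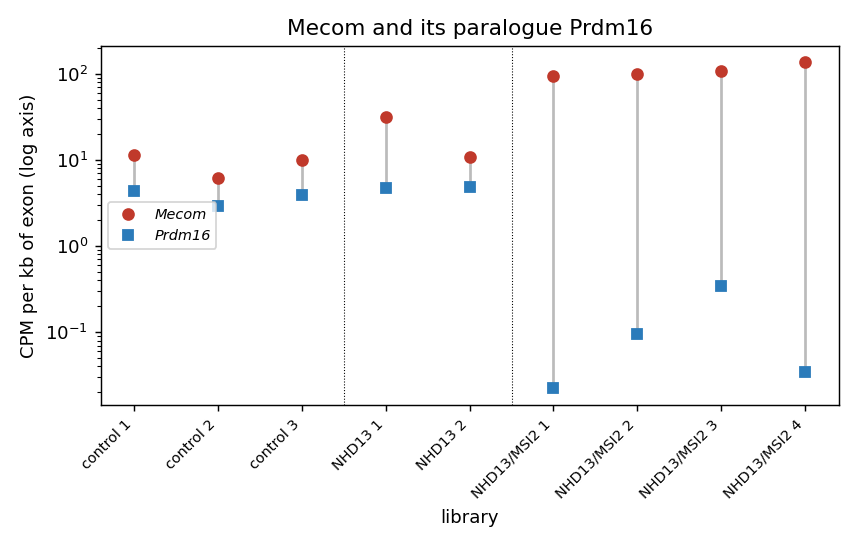
Mecom (circles) and Prdm16 (squares) in each library, as TMM-normalized CPM per kb of merged exon on a log axis; grey lines join the 2 genes of a library. Mecom is above Prdm16 in all 9 libraries, and the ratio is 2.11 to 6.70 in the 5 control and NHD13 libraries and at least 317 in the 4 labelled NHD13/MSI2.

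The proteins through which EVI1 acts on chromatin were the next group. All 18 corepressor and chromatin partners were tested and edgeR called 0 in each contrast, with 2, 2 and 0 at an unadjusted p under 0.05 in the contrasts of NHD13/MSI2 with NHD13, NHD13/MSI2 with control and NHD13 with control. Of all genes, 3.17%, 11% and 1.03% were called in the same order, and 2904, 4380 and 1802 of 13355 had an unadjusted p under 0.05. The median log2 fold changes of the partners were −0.01, 0.02 and 0.06, against −0.03, −0.01 and 0.02 over all genes. Ctbp1, which encodes the corepressor bound by EVI1, ranged from 20.8 to 34.9 CPM and Ctbp2 from 15.3 to 36.7 CPM over the 9 libraries. Their log2 fold changes over control in the libraries labelled NHD13/MSI2 were −0.04 ± 0.19 (SE) and −0.02 ± 0.31 (SE), with adjusted p of 0.909 and 0.971 by edgeR with Benjamini-Hochberg adjustment, and the sign of both changed with the libraries used. DESeq2 called 0, 2 and 0 partners in the same order of contrasts, where it called 1296, 2591 and 603 of 17322 genes. The 2 were Dnmt3a, a DNA methyltransferase, at a log2 fold change of 1.21, and Setdb1, a histone methyltransferase, at −0.48. Without replicate 4 labelled NHD13/MSI2, edgeR called Dnmt3a (0.90) and Smad3 (−0.86) over control, where 2066 of 13305 genes were called. These 3 genes were picked out because a count named them.

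Of the 15 genes reported as targets of Mecom, 14 were tested and Ckmt1 was at 3 counts or fewer in every library. Over control 2 were called higher (Cebpa and Runx1) and 3 lower (Tek, Fos and Angpt1) in the libraries labelled NHD13/MSI2, against 4.49% and 6.55% of all genes, and 9 did not pass. Of the 5, Runx1 and Tek are also on the stem cell list, and their values are given without a test. The median of the 14 was −0.05. With each library left out in turn 2 to 6 were called in place of 5, 2 of them without control replicate 1 or control replicate 3 and 3 without control replicate 2 or without replicate 2 or 3 labelled NHD13/MSI2. From NHD13 to NHD13/MSI2 Tek was the 1 gene called, as lower, where 2.58% of all genes were called lower. Nothing is read from this call, because Tek is on the stem cell list and this contrast chose Mecom. The count of targets called there was 0 without any 1 control, NHD13 replicate 1 or replicate 1, 2 or 3 labelled NHD13/MSI2, and 3 without replicate 4. In NHD13 over control edgeR called 0, with 5 at an unadjusted p under 0.05, against 1.03% of all genes called and 1802 of 13355 at that unadjusted p. DESeq2 called 3 in this contrast, Runx1, Angpt1 and Erg, where it called 603 of 17322 genes. Nothing is read from the calls of Runx1 and Erg, which are on the stem cell list.

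Tek, the receptor of angiopoietin, was at 71.1, 18.2 and 35.9 CPM in control, 54.1 and 21.7 CPM in NHD13, and 0.155, 0.0499, 0 and 1.49 CPM in NHD13/MSI2. The log2 fold change of Tek over control was −6.77 ± 1.02 (SE). Angpt1, which encodes a ligand of that receptor, was at 798 to 1021 CPM in control, 454 and 148 CPM in NHD13 and 266 to 347 CPM in NHD13/MSI2, and so was low in both groups with the fusion (log2 fold change of NHD13/MSI2 over control −1.51 ± 0.32 SE, adjusted p = 0.00869, edgeR with Benjamini-Hochberg adjustment). Its call was lost with any 1 control left out, or with replicate 1, 2 or 3 labelled NHD13/MSI2 left out, with adjusted p up to 0.0372.

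Cebpa, a factor of granulocyte differentiation, was at 3.72, 4.46 and 2.60 CPM in control, 6.39 and 8.05 CPM in NHD13 and 18.7, 19.7, 10.7 and 15.7 CPM in NHD13/MSI2. The groups did not overlap, and Cebpa rose over control in the libraries labelled NHD13/MSI2 (log2 fold change 2.17 ± 0.31 SE, adjusted p = 0.00136, edgeR with Benjamini-Hochberg adjustment), also with each library left out. Runx1, a core factor of blood stem cells, was at 73.3 to 81.5 CPM in control, 143 and 164 CPM in NHD13 and 127 to 204 CPM in NHD13/MSI2 (log2 fold change over control 1.17 ± 0.18 SE). Fos, an immediate early gene, was at 531, 43.9 and 58.9 CPM in control, so that control replicate 1 stood far above the other two, and at 3.57 to 16.9 CPM in NHD13/MSI2. Its log2 fold change was −4.84 ± 1.01 SE (adjusted p = 0.00849, same test) with all libraries and −2.80 (adjusted p = 0.0305) without control replicate 1, and the call was lost with 7 of the 9 libraries left out singly.

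Gata2, Gpr56 and Spi1, further reported targets, were not called over control. Of these, Gata2, a stem cell factor that is also on the stem cell list, ranged from 71.7 to 146 CPM over the 9 libraries (log2 fold change −0.19 ± 0.20 SE), and Gpr56, an adhesion receptor, from 1863 to 3398 CPM (−0.36 ± 0.20 SE). Spi1, which encodes the myeloid factor PU.1, was at 17.9 to 22.1 CPM in control, 31.2 and 42.8 CPM in NHD13, 78.3, 78.7 and 62.8 CPM in replicates 1 to 3 labelled NHD13/MSI2 and 13.1 CPM in replicate 4. Its log2 fold change over control was 1.52 ± 0.50 (SE) (adjusted p = 0.0622), against 1.85 (adjusted p = 0.000154) when replicate 4 was left out, by edgeR with Benjamini-Hochberg adjustment.

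**Figure D4:**
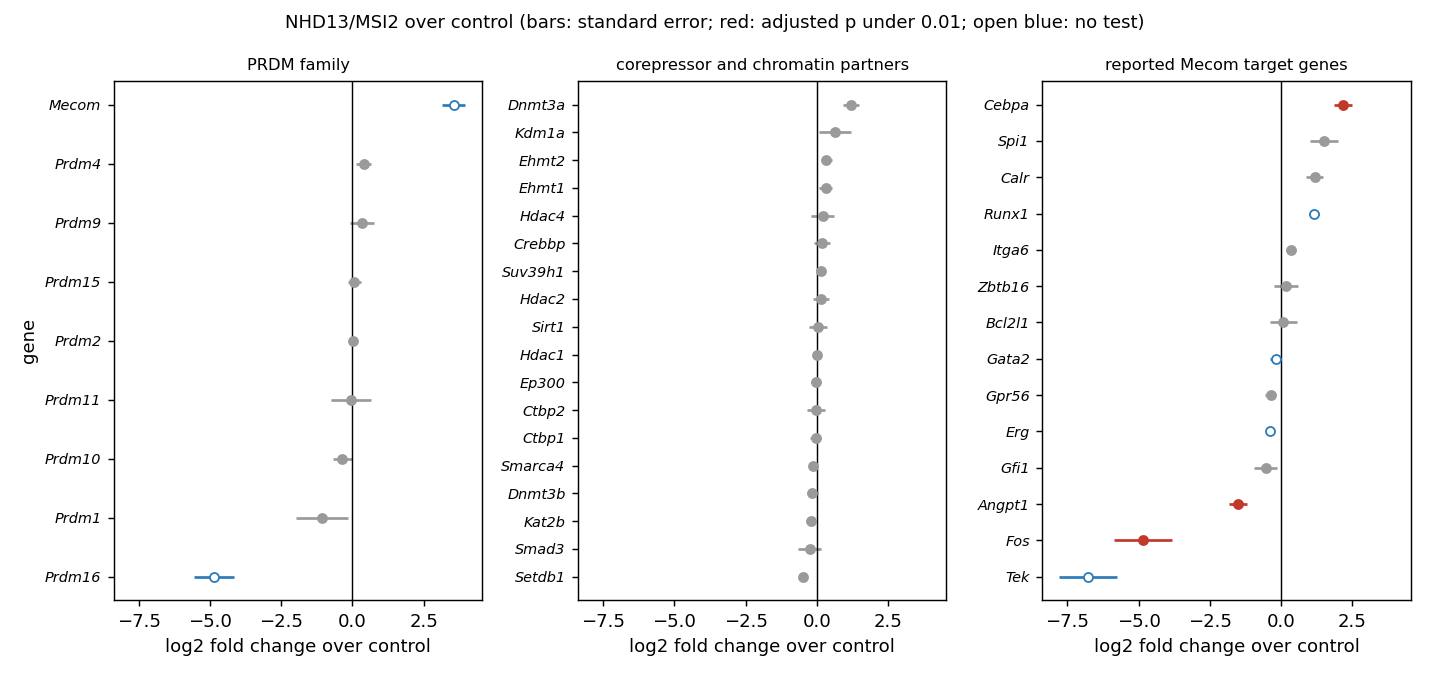
Log2 fold change between control and NHD13/MSI2-labelled libraries for Mecom with the tested PRDM genes (left), the corepressor and chromatin partners (middle) and the reported targets (right). Points are fitted values, bars are standard errors, red marks an adjusted p under 0.01 by edgeR, and open blue points are Mecom and stem cell list genes, given without a test. Mecom at 3.57 is the highest point of the left panel, and the middle panel has no red point.

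Markers of other cell types moved with the groups, and their part in the Mecom result was not tested. The 8 myeloid markers summed to 1773 to 2502 CPM in control, 4039 to 4664 CPM in NHD13 and 9916 to 16306 CPM in NHD13/MSI2, without overlap. Mpo made up most of each sum, and the 7 others summed to 578 to 748 CPM in control, 857 and 1080 CPM in NHD13 and 1397 to 2517 CPM in NHD13/MSI2, also without overlap. Over control Mpo, Csf1r, Ly86 and Irf8 rose in the libraries labelled NHD13/MSI2 and 0 of the 8 fell, where 4.49% of all genes were called higher, and in NHD13 Csf1r and Ly86 rose, where 0.824% were. Over control the members did not all point one way: in NHD13 the log2 fold changes of Elane, Csf3r and Prtn3 were −0.86, −0.90 and −0.03, and in the libraries labelled NHD13/MSI2 that of Elane was −0.39, none of them past the test. From NHD13 to NHD13/MSI2 all 8 had log2 fold changes above 0, with a median of 1.24. Csf1r and Csf3r were called higher there, where 0.584% of all genes were. These 2 calls were lost with 8 and 3 of the 9 libraries left out singly. Mpo, the myeloperoxidase of granulocyte precursors, had a log2 fold change of 2.80 ± 0.29 (SE, adjusted p = 0.000254, edgeR with Benjamini-Hochberg adjustment). Csf1r, the receptor of macrophage colony-stimulating factor, was at 9.02 to 15.5 CPM in control, 122 and 94.9 CPM in NHD13 and 281 to 473 CPM in NHD13/MSI2 (log2 fold change over control 4.98 ± 0.31 SE, adjusted p = 2.07e-05, same test).

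Mecom is also expressed by endothelial cells, so their markers were read as well. Of the 7, 4 were tested, and Pecam1, which stem cells also carry, rose (150 to 173 CPM in control, 300 and 340 CPM in NHD13, 437 to 558 CPM in NHD13/MSI2; log2 fold change over control 1.63 ± 0.15 SE, adjusted p = 0.000131, edgeR with Benjamini-Hochberg adjustment). It was the 1 of the 4 called there, where 4.49% of all genes were called higher and 6.55% lower. Most of the others were near 0: Cdh5 had at most 11 counts in any library and at most 5 in those labelled NHD13/MSI2, and Kdr, Sox17 and Sox18 were at 3 counts or fewer in all 4 of them. Plvap and Cldn5 were low but went the other way in NHD13: Plvap had 3 to 11 counts in control, 35 and 94 in NHD13 and 7 to 29 in NHD13/MSI2, with log2 fold changes over control of 3.26 in NHD13 and 1.20 in NHD13/MSI2 that did not pass, and Cldn5 had at most 24 counts in a library, in NHD13 replicate 2. The 7 markers summed to 151 to 175 CPM in control, 305 and 347 CPM in NHD13 and 439 to 559 CPM in NHD13/MSI2, and without Pecam1 to 1.52 to 3.24, 4.51 and 6.82, and 0.465 to 2.04 CPM in the same order. The 6 megakaryocyte markers summed to 68.2 to 150 CPM in control, 73.7 and 538 CPM in NHD13 and 9.22 to 35.2 CPM in NHD13/MSI2. Of these, 4 were tested and 1 fell over control, Itga2b, an integrin that early progenitors share (log2 fold change −3.001 ± 0.57 SE, adjusted p = 0.00542, same test), a call lost with any 1 control left out and with replicate 1 or 2 labelled NHD13/MSI2 left out (adjusted p up to 0.0233). Among the LSK and lineage markers 2 of the 8 tested fell over control, Cd34 and Flt3. Both this count and that of the megakaryocyte markers stand against 6.55% of all genes called lower. In NHD13 over control 1 of the 8 was called lower, where 0.21% of all genes were. Cd34, a sialomucin of progenitors, also fell in NHD13 over control (log2 fold change −1.80 ± 0.25 SE, adjusted p = 0.00572, same test), with 1566 to 1649.5 CPM in control, 363 and 555 CPM in NHD13 and 588 to 894 CPM in NHD13/MSI2, so that unlike Mecom it was low in both groups with the fusion. The call of Cd34 in NHD13 was lost with 7 of the 9 libraries left out singly (adjusted p up to 0.0358), and in NHD13/MSI2 the calls of Cd34 and Flt3 were each lost with 5, with adjusted p up to 0.0217 and 0.0211.

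The genes with the profile most like that of Mecom were found by Pearson's correlation of log2 CPM over the 9 libraries, among 10971 other genes with a mean of at least 50 counts. The points fall into 3 groups and share their libraries, so the coefficients describe likeness and carry no p. The 10 highest were Idh1, Stxbp2, Cacna1b, Atg16l2, Rgag4, Rin2, Sp140, Arid3a, Gdpd1 and Ap3m2, between 0.974 and 0.986. The 5 lowest were Steap3, Cisd1, Tespa1, Nr1d2 and Bmyc, between −0.991 and −0.978. Such values were common: 240 genes were above 0.9 and 234 below −0.9. Idh1, the cytosolic isocitrate dehydrogenase, was at 60.4 to 63.1 CPM in control, 103 and 77.0 CPM in NHD13 and 158 to 190 CPM in NHD13/MSI2. Like Mecom it was higher in NHD13 replicate 1 than in NHD13 replicate 2. Cacna1b, a calcium channel subunit, was at 0.0949 to 0.440 CPM in control, 9.61 and 0.543 CPM in NHD13 and 29.3 to 63.8 CPM in NHD13/MSI2. Steap3, a metalloreductase of iron uptake, had the opposite profile, at 39.4 to 48.0 CPM in control, 28.7 and 40.1 CPM in NHD13 and 16.7 to 20.4 CPM in NHD13/MSI2. The names depend on the libraries: 2 of the 10 highest stayed among the 10 highest without NHD13 replicate 2, and 3 without replicate 4 labelled NHD13/MSI2.

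**Figure D5:**
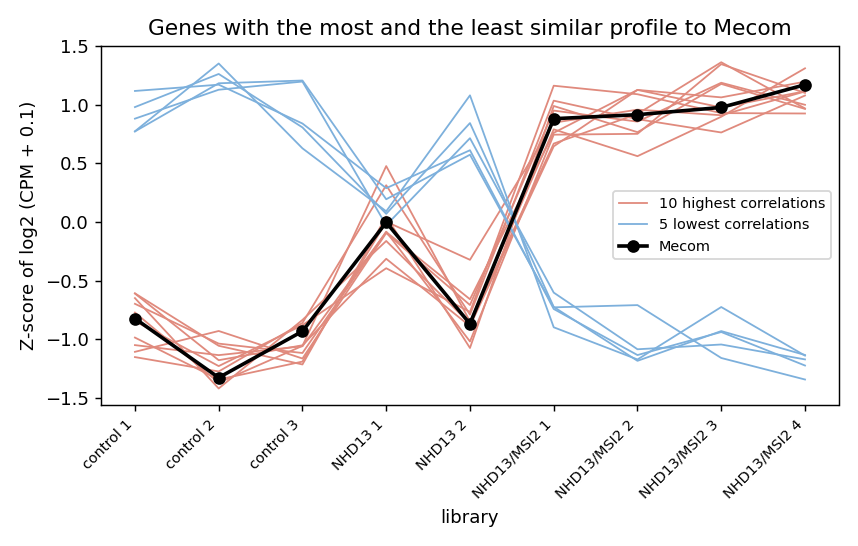
Z-scores of log2 (CPM + 0.1) over the 9 libraries for Mecom (black), the 10 genes with the highest (red) and the 5 with the lowest (blue) Pearson correlation with it. All profiles change between the 5 control and NHD13 libraries and the 4 labelled NHD13/MSI2, and NHD13 replicate 1 lies nearer to the latter than replicate 2 does in the profile of Mecom.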

How the data were processed

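RNA-seq of sorted LSKs was analysed in 9 libraries, grouped by the sample labels. The authors deposited whole-number read counts per gene symbol, 1 column per library, unnormalized and unpooled. STAR, HTSeq, DESeq and mm9 are named in the submitters' processing notes; the annotation and the strand setting are not given in the sources used here. In the table the names after the March genes sit 2 rows too high. These 11942 names (49.6%) were moved down 2 rows, 13 March rows (at most 0.0323% of a library) were left out, and 2 blank rows at the end (at most 0.00816%) thereby received names. The move was checked after the data were seen: only with 2 of the moves of 0 to 4 rows did the row named Xist reach 945 CPM (without TMM factors) on average in control replicates 1 and 3, with at most 2.47 CPM elsewhere, and Y-linked counts there fall to 32 and 1, with at least 1971 elsewhere. Of 97 rows with names starting Rpl or Rps, a few of them kinases, 44 were at 100 CPM or more in every library with this move, against 37 to 41 with the others. All 9 sample columns were used.

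Counts were filtered by filterByExpr by group (13355 genes), TMM-scaled and tested with glmQLFit and glmQLFTest of edgeR 4.0.16 (the quasi-likelihood test; R 4.3.3), with all 9 libraries in 3 groups (prior df 3.38). Calls are at a Benjamini-Hochberg adjusted p under 0.01. Depth gives a floor of 3 counts, or 0.12 to 0.195 CPM per library; floors and intervals cover counting error only. DESeq2 1.42.0 and further alternatives were run, and the test was tested on simulated data. Mecom, the gene lists and the alternatives were chosen with earlier results of these data known. Some genes of the lists are not reported here and are left out of the lists' counts and medians. Each p of Mecom and of stem cell list genes was computed but is not given, since these values chose the gene. Genes named are Mecom, list members past the threshold (at most the 6 largest changes over control per list), a fixed set (Prdm16, Ctbp1, Ctbp2, Gata2, Spi1, Cebpa, Gpr56 and Hlf), the 10 and 5 genes most and least like Mecom, the locus neighbours and the label checks; others are said to be picked after their values were seen. Start windows are from RefSeq on GRCm38.p6, matched by symbol; no coordinates were converted.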

Additional observations from a re-analysis of the deposited data

Results flagged for a closer look

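Within the 4 libraries labelled NHD13/MSI2, 3 genes had a library far from the other three by Dixon's criterion, among 45 genes examined, and chance flags about 1 group in 20. Replicate 4 was the far library in 2 of them: Msi2 at 241 CPM (77.1 to 88.0 CPM in the others) and Tek at 1.49 CPM (0 to 0.155 CPM). Replicate 1 was far from the others for Fos, at 16.9 CPM against 3.57 to 4.80 CPM. Mecom itself was not among them, and its log2 fold change over control was 3.45 without replicate 4. The 45 left out most partners, so this count does not measure how far replicate 4 departs. Among those left out, picked after their values were seen, replicate 4 had Dnmt3a at 441 CPM (211 to 238 CPM in the others) and Smad3 at 81.8 CPM (22.2 to 28.7 CPM). Its chi-square per gene against the others was 397 to 426, and theirs among themselves 18.7 to 32.3. The cause was not tested.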

How the results depend on the processing

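The Mecom values are descriptions of a gene chosen on these libraries. Its log2 fold change over control was 3.53 with the replicate block, 3.34 to 3.75 with each library left out, 4.19 with only the libraries with Y-linked counts and 0.14 with names as deposited, where the row so named is another gene's (0.14 over NHD13). Mecom over NHD13 ranged from 1.83 to 3.36 with a library left out. Mecom in NHD13 over control ranged from 0.24 to 1.77. Group means without TMM factors were 124, 284 and 1247 CPM.

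Counts of calls moved far more. For NHD13/MSI2 over NHD13 (423) they were 1296 by DESeq2, 1177 at an adjusted p under 0.05, 30 with the 2 groups only, 203 with the replicate block, 38 with Y-linked libraries and 128 to 646 with a library left out. For NHD13/MSI2 over control (1474) they were 2591, 2745, 95 with Y-linked libraries and 647 to 2066 with a library left out. For NHD13 over control (138) they were 603, 386, 83 with 2 groups, 7 with Y-linked libraries and 38 to 251. Stem cell genes lower over control (13) numbered 3 with names as deposited, 3 with Y-linked libraries and 11 to 14 with a library left out; those called in NHD13 over control (1) numbered 4 by DESeq2, 3 at 0.05, 0 with 2 groups or Y-linked libraries and 0 to 2. PRDM genes over NHD13 (1) numbered 0 with 2 groups, 2 with deposited names, 0 with Y-linked libraries and 0 to 1 with a library left out; those over control (1) numbered 2 with deposited names and 0 with Y-linked libraries. Partners over control (0) numbered 2 by DESeq2, at 0.05 or with the block, 1 without a filter or with names as deposited, and 0 to 2. Reported targets over NHD13 (1) numbered 2 by DESeq2 or with the block and 0 with 2 groups, deposited names or Y-linked libraries (0 to 3 with a library left out), 3 and 0 over control (5) with deposited names and Y-linked libraries (2 to 6), and 3 by DESeq2 and 2 at 0.05 in NHD13 over control (0 to 1). Of the profile genes, Spearman's coefficient kept 1 of the 10 highest and 0 of the 5 lowest, and 2 to 9 and 1 to 4 were kept with a library left out.

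Signs turned with names as deposited for Ndn (0.069), Tek (0.45), Mllt3 (0.24), Pecam1 (−0.56), Mpo (−0.079), Rgag4 (−0.35) and Nr1d2 (0.77). Rows so named hold other genes' counts, so these signs say nothing about the genes named. The same holds for list members named after the March genes in the counts with deposited names. Among genes that passed in no setting, signs turned for Ctbp1 (−0.17 to 0.065) and Ctbp2 (0.00713 with 2 groups, −0.37 to 0.13 with a library left out). Of 43 calls of named genes, stem cell list genes included, 36 were lost with Y-linked libraries, where 1 control remains, 6 with the block, 4 with 2 groups, 1 with RLE factors, 1 without a filter and 0 by DESeq2. The replicate numbers pair no samples by the labels: correlations of deviations in 7 same-numbered pairs ran from −0.0716 to 0.194, and 5 of 8 libraries correlated best with their own number. The causes were not tested. Depth does not limit Mecom, whose lowest count was 1619, but the ratios to Prdm16 rest on as few as 4 counts.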
